A study of Mus musculus with 6 samples.

Results

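The genes of cholesterol and fatty acid synthesis were followed in mouse hepatic stellate cells, the vitamin A-storing pericytes of the liver that turn into matrix-producing myofibroblasts after injury. The set holds 31 genes chosen by function, the enzymes from acetyl-CoA to cholesterol, the SREBP transcription factors and the proteins that hold or release them, a sterol carrier, a sterol esterification enzyme and the fatty acid enzymes. Each was read from the brightest of the probe sets that the platform annotation gives to that gene alone. Of the 31 genes, 29 were measured in this way, out of 18194 genes on the array, and Acat2 and Soat1, for which no probe set named the gene alone, were not analysed.

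RNA was hybridised to Affymetrix arrays, 3 for each of 2 groups. All cells were C57Bl/6 and carried CMV-rtTA and TRE-GFP-shRNA.p53.1224, a pair of transgenes with which doxycycline turns on a hairpin against p53 and a green fluorescent protein. The proliferating cells were kept in doxycycline at 1 ug/ml and have p53 knocked down. The senescent cells are the control without it and express p53. Because the groups differ in doxycycline, in p53 and in growth state together, these cannot be told apart here, and no cells without the transgenes were compared. Whether the 3 arrays per group stem from different animals or cultures is not stated, and p-values then measure only the spread between these arrays, which may be technical. In bulk RNA, fewer cells of a type and less RNA per cell cannot be told apart.

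Values are log2 expression values and changes are senescent minus proliferating. They are relative to the bulk of the genes, since the arrays were forced to one distribution. The p53 target Cdkn1a, the gene of p21, went with the labels and read 11.00, 11.03 and 11.10 on the proliferating and 12.85, 12.63 and 12.86 on the senescent arrays. Background was set at a log2 value of 5.57, under which 95% of the probe sets for olfactory receptors lie. Of 14 stellate cell and fibroblast markers, 12 lay above it in at least 1 group mean, Acta2 and Des among them. Ngfr (group means of 5.54 and 5.58) and Hgf (5.76 and 5.48) lay close to it. Lrat and Reln, genes of quiescent stellate cells, lay below it on every array. Pdgfrb, Col3a1, Col1a1 and Col1a2 changed by -1.30, -0.93, -0.56 and -0.49, and Timp1 by 0.76 (limma adjusted p of 1.28e-04 to 0.00163). The other stellate markers did not pass. The summed linear signal of the 14 markers was 144100 to 149900 on the proliferating and 139500 to 141300 on the senescent arrays. Most markers of cells rich in lipid synthesis were low. Of 13 measured hepatocyte markers 7 lay below background on every array, Alb among them, and the summed signal was 561 to 661 and 589 to 681. The other 6 lay above it in at least 1 group mean. Of the 13, Apob changed by 0.86 and Ahsg by -0.74 (limma adjusted p = 1.47e-04 and 0.0352), and the others did not pass. Of 5 adipocyte markers 4 lay below background on every array, Adipoq among them, with sums of 138 to 160 and 132 to 151. For macrophages 5 of 10 did (Ptprc and Adgre1 among them, sums of 583 to 627 and 680 to 699) and for liver endothelium 6 of 8 (Pecam1 among them, sums of 324 to 374 and 373 to 380). The macrophage marker Csf1r rose by 0.35 and the endothelial marker Cdh5 by 0.72 (limma adjusted p = 0.0129 and 4.10e-04). The others of both lists did not pass. Biliary markers were above background for 4 of 5 (Cftr was not) with sums of 2025 to 2108 on the proliferating and 2536 to 2809 on the senescent arrays. Of the biliary markers, Krt19 rose by 0.58 and Krt7 fell by 0.69 (limma adjusted p = 0.00183 and 9.20e-04), while Epcam, Sox9 and Cftr were at -0.24, -0.23 and -0.28 and did not pass. The part of the hepatocyte, macrophage, endothelial and biliary markers in the results was not tested.

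Cells build cholesterol from acetyl-CoA by way of mevalonate, isoprenoid units and squalene, and fatty acids from the same precursor. The SREBP transcription factors drive the genes of both pathways. Their precursors sit in the endoplasmic reticulum with the escort SCAP, are held there by INSIG proteins while sterols are plentiful, and are carried to the Golgi and cut into active factors when sterols run low. SREBPs bind DNA weakly by themselves and act at promoters together with NF-Y and Sp1. Stellate cells are known for the lipid droplets that they hold at rest and lose on activation.

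The promoters are described first, for the motifs that the genes share. Whether these motifs bear on any value below was not tested. RefSeq promoter sequences (GRCm38.p6) were given for 25 of the 31 genes, in 33 windows of 250 bases before an annotated start. None was given for Fdps, Fdft1, Sqle, Stard4, Scd1 and Scd2. Both strands were searched for the NF-Y box CCAAT, which is ATTGG on the other strand, the Sp1 box GGGCGG, the E-box CACGTG, which reads alike on both strands, and the sterol response element TCACNCCAC. No matches of different motifs overlapped in these windows. The 6 sequences below belong to an enzyme with a sterol response element match (Hmgcs1), to the enzymes that differed most between the proliferating arrays among those with a sequence (Idi1, Lss and Msmo1), to the one with the largest rise (Hsd17b7) and to a called fall (Ebp). Each is written in the direction of the gene and ends at the base before the start, with NF-Y box and sterol response element matches in capitals.
Hmgcs1, chr13:119690101-119690350, plus strand: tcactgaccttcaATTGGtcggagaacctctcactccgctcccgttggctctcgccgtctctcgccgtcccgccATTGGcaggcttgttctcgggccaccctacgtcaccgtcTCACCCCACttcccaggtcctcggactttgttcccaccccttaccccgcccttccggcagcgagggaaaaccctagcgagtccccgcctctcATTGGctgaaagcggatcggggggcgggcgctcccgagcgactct
Idi1, chr13:8885356-8885605, plus strand: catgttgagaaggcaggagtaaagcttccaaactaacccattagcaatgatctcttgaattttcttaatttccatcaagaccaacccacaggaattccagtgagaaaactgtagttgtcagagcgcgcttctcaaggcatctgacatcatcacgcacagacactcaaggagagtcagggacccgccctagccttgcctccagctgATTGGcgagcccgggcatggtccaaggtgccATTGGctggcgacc
Lss, chr10:76531355-76531604, plus strand: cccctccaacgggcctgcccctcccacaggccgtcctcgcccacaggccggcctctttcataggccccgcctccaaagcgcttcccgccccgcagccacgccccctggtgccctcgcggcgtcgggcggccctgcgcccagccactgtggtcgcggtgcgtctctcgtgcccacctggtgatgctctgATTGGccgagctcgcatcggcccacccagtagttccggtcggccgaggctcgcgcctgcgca
Msmo1, chr8:64733579-64733828, minus strand: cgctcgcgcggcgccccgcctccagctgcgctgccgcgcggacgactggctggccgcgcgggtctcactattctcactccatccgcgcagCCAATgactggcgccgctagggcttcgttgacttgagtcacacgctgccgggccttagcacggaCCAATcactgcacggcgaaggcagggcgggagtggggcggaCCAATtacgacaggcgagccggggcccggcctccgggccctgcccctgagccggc
Hsd17b7, chr1:169969206-169969455, minus strand: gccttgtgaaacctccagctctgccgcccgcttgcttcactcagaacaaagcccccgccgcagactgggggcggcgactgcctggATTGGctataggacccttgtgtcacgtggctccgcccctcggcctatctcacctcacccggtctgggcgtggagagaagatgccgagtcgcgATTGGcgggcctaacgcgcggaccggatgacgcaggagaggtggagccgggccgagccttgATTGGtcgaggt
Ebp, chrX:8193513-8193762, minus strand: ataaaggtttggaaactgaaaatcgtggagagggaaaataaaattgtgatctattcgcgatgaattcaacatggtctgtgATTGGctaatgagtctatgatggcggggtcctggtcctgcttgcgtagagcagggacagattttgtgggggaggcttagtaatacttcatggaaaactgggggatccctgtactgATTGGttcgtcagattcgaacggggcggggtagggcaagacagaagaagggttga

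The NF-Y box was found in at least 1 window of 14 of the 15 sterol enzyme genes with a sequence, of 4 of the 5 SREBP control genes and of 1 of the 4 fatty acid genes. Acat2 was the sterol enzyme gene without it, and Fasn the fatty acid gene with it. The fatty acid genes Scd1 and Scd2 could not be searched. Over the 33 windows the share with a match was 63.6%, against 33.8% of all 32851 windows, and by gene it was 80.0% against 37.5%. Idi1 shows the box as a pair close to the start, and Hmgcs1, Msmo1 and Hsd17b7 show 3 each. The Sp1 box was also found in 14 of 15 sterol enzyme genes and in 69.7% of the members' windows, against 32.7% of all. An E-box was found in 15.2% of the windows, against 6.02%. A sterol response element was found in 1 of the 33 windows, that of Hmgcs1, where it reads TCACCCCAC, against 1.05% of all windows. The comparison windows belong to 27025 genes, expressed in these cells or not, and a comparison with expressed genes alone was not made. These are matches of letters and not measured sites, and a window without a match says nothing about a factor.

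**Figure D1:**
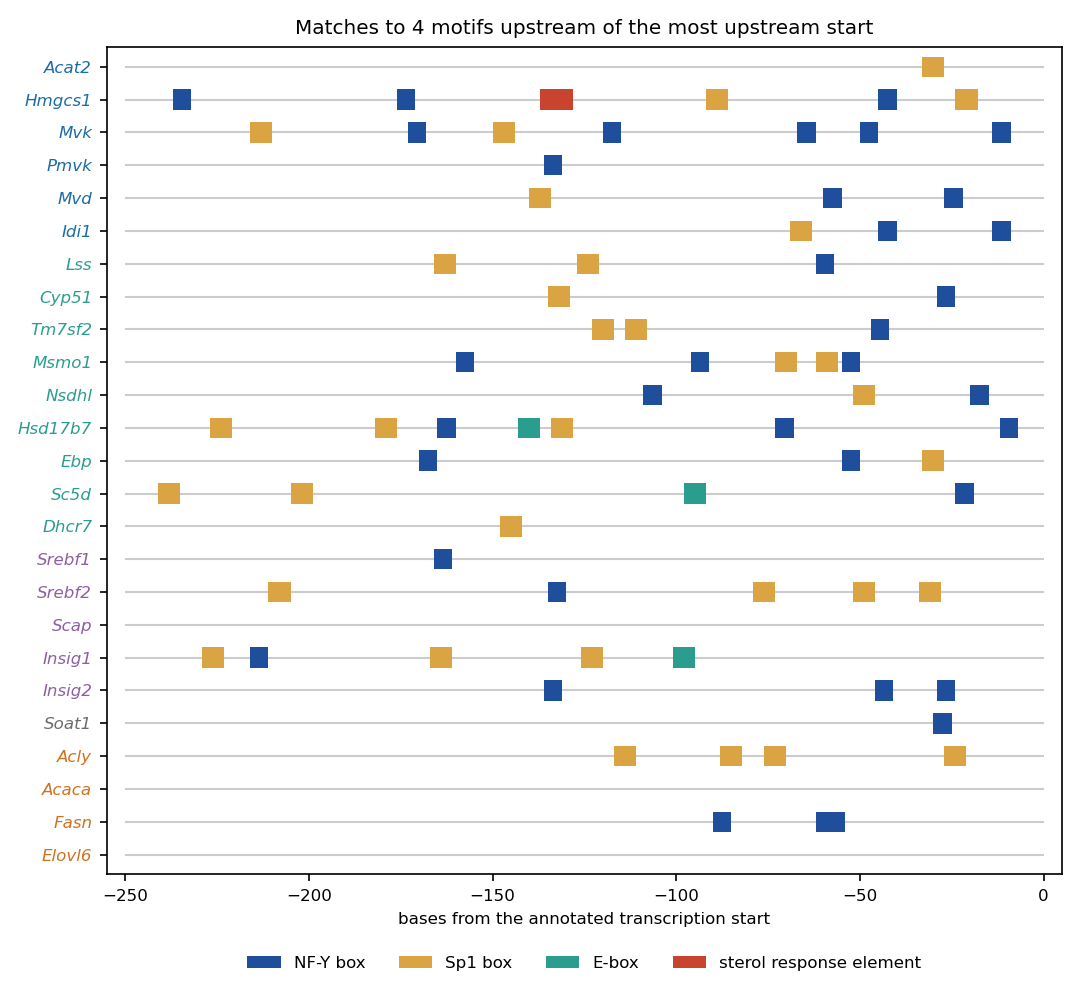
Matches to 4 motifs in the 250 bases before the most upstream annotated start of 25 genes (horizontal axis, bases from the start), 1 line per gene, with gene names coloured by role from early sterol enzymes (top) to fatty acid enzymes (bottom). NF-Y boxes lie on most lines of sterol enzymes and on 1 of the 4 lines of fatty acid genes, and the single sterol response element match is in Hmgcs1.

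On the array of proliferating replicate 1 most of the sterol enzymes read lower than on the other proliferating arrays, and results are therefore given with and without it. This array was the lowest of the 3 proliferating arrays for 26 of the 29 genes, against 42.2% of all genes, and the lowest of all 6 arrays for 15, against 21.1%. It lay more than 0.2 log2 units below the mean of the other proliferating arrays for 13 of the 17 sterol enzymes and for 17 of the 29 genes, against 13.5% of all genes. The median distance was -0.37 for the sterol enzymes, -0.13 for the fatty acid enzymes, -0.071 for the SREBP control genes and -0.023 for all genes, of which 90% lay between -0.31 and 0.31. No other array stood so far from its group, as the sterol enzymes' median distance from the group's other arrays was between -0.023 and 0.26 on the other 5.

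Fdps and Idi1 had the largest distances of the 29 genes. Fdps, which joins isoprenoid units into farnesyl pyrophosphate, read 10.18, 11.09 and 11.03 on proliferating replicates 1, 2 and 3, and 10.47, 10.48 and 10.36 on the senescent arrays. Idi1, which makes the second isoprenoid unit, read 10.83, 11.68 and 11.63, and 11.11, 11.19 and 10.93. For both, replicate 1 lay under every senescent array while replicates 2 and 3 lay above them all. Only 12 of the 18194 genes had a more negative distance than Fdps (-0.88), and 22 than Idi1 (-0.82). Later in the pathway Lss, which closes the sterol rings, lay 0.68 log2 units lower on replicate 1, Msmo1, a sterol demethylation enzyme, 0.64 lower and Nsdhl, which acts in the same step, 0.59 lower. Some sterol enzymes had further probe sets above background. Those of Idi1 (-0.75) and Lss (-0.41 and -0.24) were lower on replicate 1 too. Fdps, Msmo1 and Nsdhl had no further probe set above background. Of the 17 further sterol enzyme probe sets above background, 16 were lower on replicate 1 than the mean of replicates 2 and 3, with a median of -0.32. The median of all genes was -0.023, and the share of all probe sets lower on replicate 1 was not counted. These probe sets come from the same arrays, with several for some genes, and are no independent test.

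The other genes varied. Stard4, Insig1, Elovl6 and Acaca lay at -0.40, -0.31, -0.26 and -0.20, while Scap, Srebf2 and Scd2 differed by 0.018, -0.071 and -0.077. Scd1, a fatty acid desaturase, lay 0.27 log2 units higher on replicate 1, and Ebp was the sterol enzyme that lay higher there, by 0.11. The processing equalises the medians of the arrays. The median of all probe sets was 6.19 in log2 units on replicate 1, against 6.15 to 6.18 on the others. The 3' over 5' signal of Actb was 0.52 in log2 units, against 0.38 to 0.60 on the others, and that of Gapdh 0.093, against 0.045 to 0.30. Poly-A spike-ins read 10.72, against 10.53 and 10.60 on the other proliferating arrays. On the second principal component, the second largest axis of variation over all probe sets, replicate 1 was at 28.5. The other proliferating arrays were at -22.1 and -6.08, and the senescent arrays at 11.7, 3.50 and -15.6. Why replicate 1 differs was not tested.

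**Figure D2:**
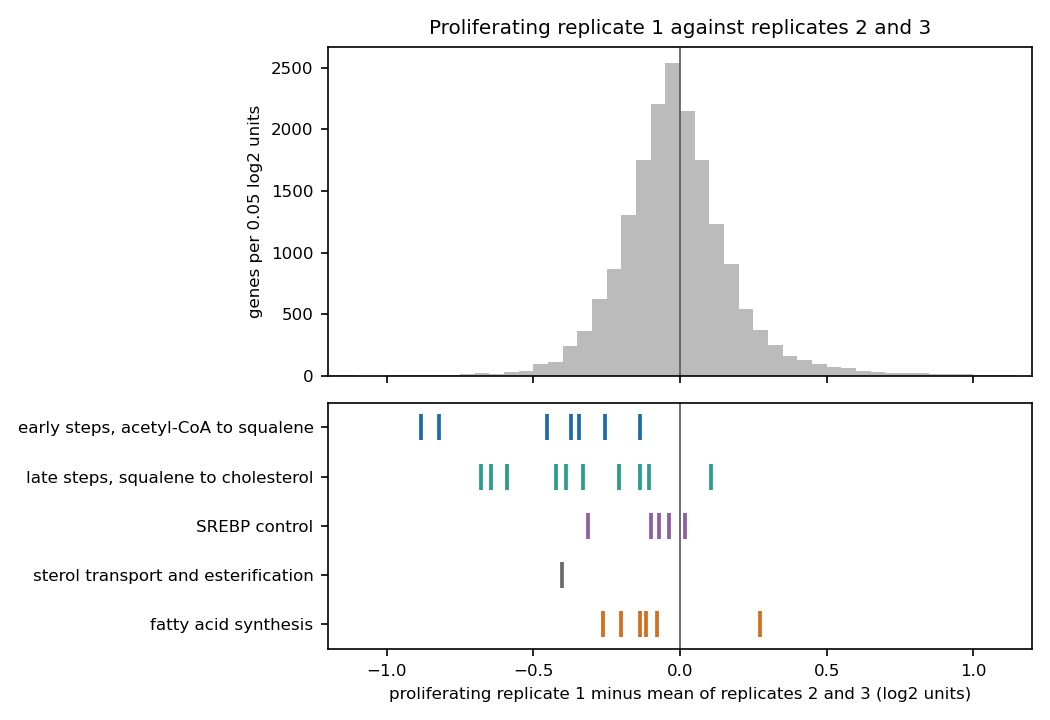
Distance of proliferating replicate 1 from the mean of replicates 2 and 3 (horizontal axis, log2 units, shown from -1.2 to 1.2), as a histogram over all genes (top) and as 1 tick per gene for each role (bottom). The median of all genes is -0.023, and the sterol enzymes reach from -0.88 to 0.11 with a median of -0.37.

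Over all 6 arrays 9 of the 29 genes fell in senescent cells and 2 rose, with limma and a Benjamini-Hochberg threshold of 0.05 over all genes, and 18 did not pass. The test called 20% of all genes in either direction. The 9 were Scd2, Dhcr7, Stard4, Srebf1, Ebp, Scd1, Elovl6, Fdft1 and Srebf2, from 1.66-fold to 1.17-fold lower, and the 2 were Hsd17b7 and Tm7sf2, 1.57-fold and 1.42-fold higher. Over all genes the shares were 10.5% lower and 9.49% higher. Among the 12501 genes above background, where all 29 lie, they were 17.4% and 14.7%, with 9 falls and 2 rises again. The median change over the 29 genes was -0.11, against -0.0018 over all genes. The groups did not overlap for 15 genes, 11 of them lower and 4 higher in senescent cells, against 19.6% and 17.4% of all genes. Without proliferating replicate 1 there were 13 falls and 2 rises, against 9.76% and 8.59% of all genes, and the median was -0.24, against -0.012 over all genes. The senescent arrays then lay below both other proliferating arrays for 20 genes and above both for 4, against 25.3% and 21.7% of all genes. With arrays scaled to the poly-A spike-ins, which moved the median of all genes by -0.60, 26 of the 29 genes were called lower and 0 higher in limma, against 83.2% and 0.962% of all genes, Hsd17b7 was at 0.053 and Tm7sf2 turned to -0.088, so directions here are relative to the bulk of the genes. With each array centred on genes of middle level 5 fell and 2 rose, against 7.35% and 12.6% of all genes. Without proliferating replicate 3 the counts were also 5 and 2, against 7.32% and 6.82% of all genes.

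**Figure D3:**
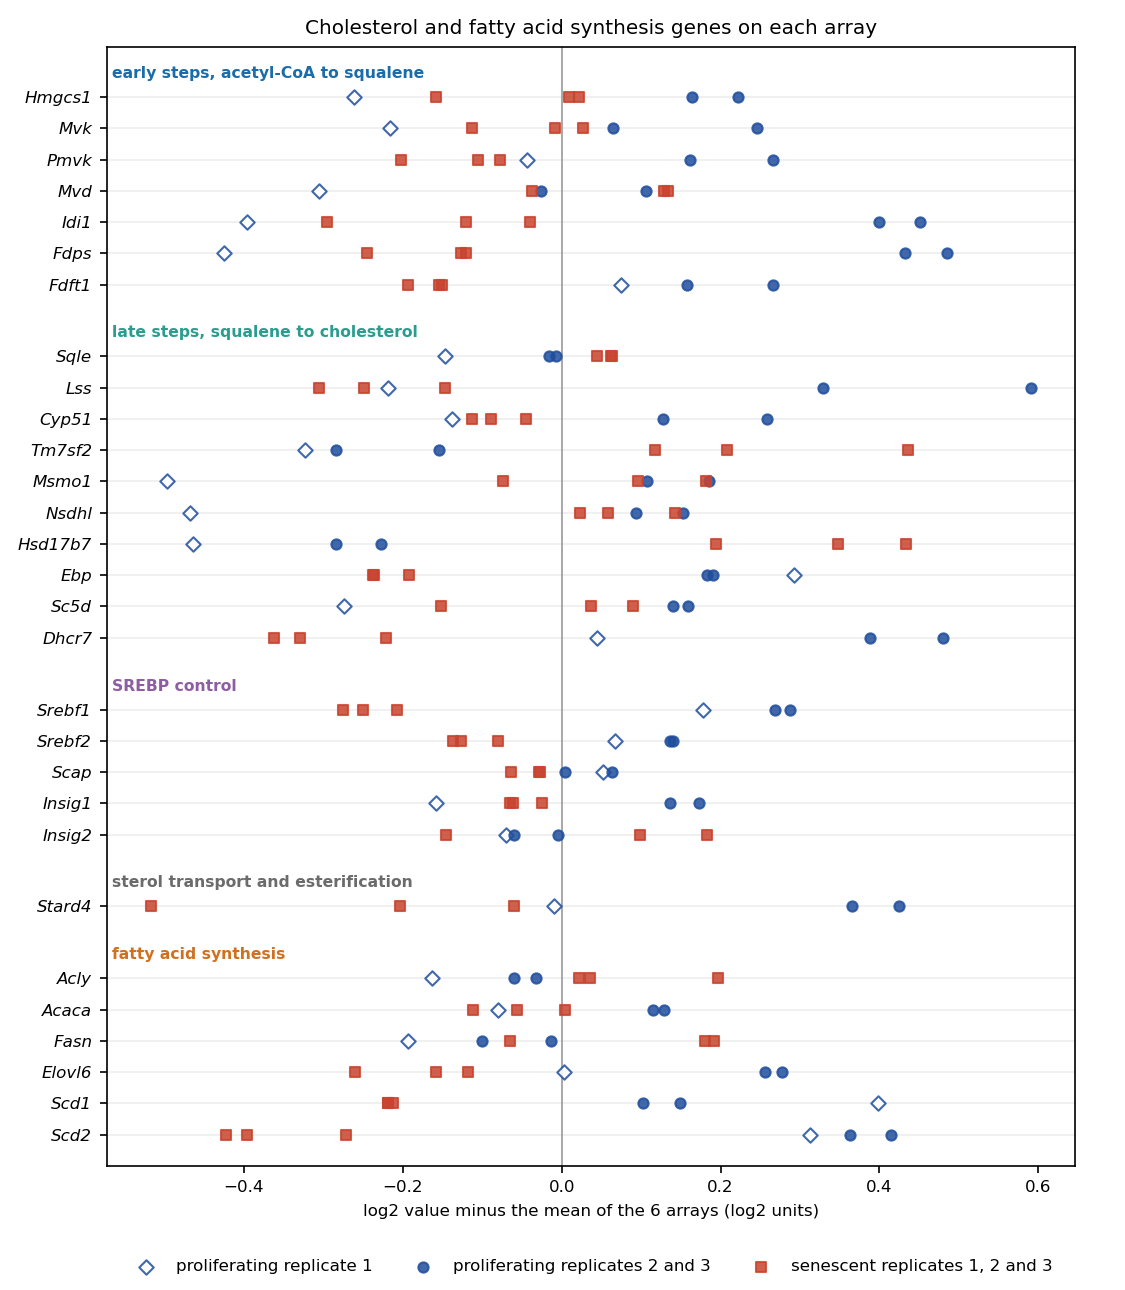
Log2 value of each gene on each array minus its mean over the 6 arrays (horizontal axis, log2 units), with proliferating replicate 1 as open diamonds, proliferating replicates 2 and 3 as filled circles and the 3 senescent arrays as squares. For Idi1 and Fdps the diamond lies left of every square and the circles lie right of them all, while for Scd1 and Scd2 all proliferating arrays lie right of the senescent arrays.

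In the early steps, from acetyl-CoA to squalene, 1 of 7 measured genes fell and 0 rose. Over all genes 10.5% fell and 9.49% rose, and among genes above background 17.4% and 14.7%. Without proliferating replicate 1, 4 of the 7 fell and 0 rose, against 9.76% and 8.59% of all genes. The median change was -0.26, and -0.34 without that array. The gene that fell was Fdft1, squalene synthase, the first enzyme that serves sterols alone. It read 11.33, 11.41 and 11.52 in proliferating and 11.10, 11.06 and 11.10 in senescent cells, a change of -0.33 ± 0.07 (SE, n = 3 per group, limma adjusted p = 0.0153). The groups did not overlap. The call ended without proliferating replicate 3 (-0.28, adjusted p = 0.0662) or senescent replicate 2 (-0.32, adjusted p = 0.0508).

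Idi1 and Fdps changed by -0.30 ± 0.21 and -0.33 ± 0.22 over all arrays (limma adjusted p = 0.381 and 0.362). Without proliferating replicate 1 the changes were -0.58 and -0.62, 1.49-fold and 1.54-fold lower (adjusted p = 0.00593 and 0.00206). Pmvk, phosphomevalonate kinase, read 8.38, 8.59 and 8.69 in proliferating and 8.35, 8.22 and 8.32 in senescent cells. Its groups did not overlap, and its change of -0.26 (adjusted p = 0.0936) became -0.34 without replicate 1 (adjusted p = 0.0253). Calls that appear when an array is left out after its values are known to differ are given as a description of the other 5 arrays.

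Hmgcs1, the synthase that makes the precursor of mevalonate, read 11.52, 11.94 and 12.00 in proliferating and 11.62, 11.80 and 11.79 in senescent cells. Its change of -0.084 had a 95% confidence interval of -0.38 to 0.21 (adjusted p = 0.729). Without replicate 1 the senescent arrays lay below both others, at -0.24 (adjusted p = 0.11). Mvk, mevalonate kinase, gave -0.063 (adjusted p = 0.777), and -0.19 without replicate 1. Mvd, which makes the first isoprenoid unit, went the other way at 0.15 (adjusted p = 0.424), and at 0.035 without it.

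In the late steps, from squalene to cholesterol, 2 of 10 genes fell and 2 rose, against 10.5% and 9.49% of all genes. Among genes above background the shares were 17.4% and 14.7%, near those of these 10 genes. The changes ran from -0.61 to 0.65. The median was 0.048, and -0.12 without proliferating replicate 1. Hsd17b7, a ketosteroid reductase of sterol demethylation, read 9.90, 10.08 and 10.14 in proliferating and 10.80, 10.72 and 10.56 in senescent cells. It was 1.57-fold higher, with a change of 0.65 ± 0.09 (limma adjusted p = 0.00217). Its other probe sets above background gave 0.59 and 0.61, and passed in a fit over all probe sets (adjusted p = 0.0226 and 0.00286).

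Tm7sf2, a sterol reductase that acts after Cyp51, read 7.22, 7.39 and 7.26 in proliferating and 7.98, 7.75 and 7.66 in senescent cells, a change of 0.51 ± 0.10 (limma adjusted p = 0.00799). The senescent arrays lay above all proliferating arrays for both genes. Dhcr7, which makes cholesterol in the last step of one branch, went down. It read 8.93, 9.37 and 9.28 in proliferating and 8.67, 8.53 and 8.56 in senescent cells, 1.52-fold lower with a change of -0.61 ± 0.12 (adjusted p = 0.00755).

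Ebp, a sterol isomerase, read 11.29, 11.19 and 11.18 in proliferating and 10.76, 10.76 and 10.80 in senescent cells, 1.36-fold lower with a change of -0.44 ± 0.07 (limma adjusted p = 0.00285). The groups did not overlap. The calls of Hsd17b7, Tm7sf2, Dhcr7 and Ebp held without any 1 of the 6 arrays.

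Lss read 9.10, 9.65 and 9.91 in proliferating and 9.17, 9.02 and 9.07 in senescent cells, a change of -0.47 ± 0.18 (limma adjusted p = 0.114). Without replicate 1 it was -0.69, 1.62-fold lower (adjusted p = 0.00369). Its dimmer probe sets gave -0.21 and -0.033 over all arrays. Cyp51, the lanosterol demethylase, gave -0.17 (adjusted p = 0.335), and -0.28 without replicate 1 (adjusted p = 0.0502), when the senescent arrays lay below both others.

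Sqle, squalene epoxidase and a rate-limiting enzyme, read 11.33, 11.46 and 11.47 in proliferating and 11.54, 11.54 and 11.52 in senescent cells. All senescent arrays were the higher ones, but by 0.11 with a 95% confidence interval of -0.048 to 0.27 (limma adjusted p = 0.329). Msmo1 and Nsdhl had changes of 0.14 and 0.15 (adjusted p = 0.66 and 0.58) that turned to -0.079 and -0.048 without replicate 1. Sc5d, the sterol desaturase before Dhcr7, gave -0.017 (adjusted p = 0.951), and its dimmer probe sets 0.34 and 0.24.

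Of the 5 SREBP control genes, 2 fell and 0 rose, against 10.5% and 9.49% of all genes and 17.4% and 14.7% of those above background. Srebf1, which encodes the factors SREBP-1a and SREBP-1c, read 10.83, 10.94 and 10.92 in proliferating and 10.45, 10.40 and 10.38 in senescent cells. It was 1.40-fold lower, with a change of -0.49 ± 0.07 (limma adjusted p = 0.00187), and held its call without any 1 array. The probe set read does not tell its isoforms apart here. Srebf2, which encodes SREBP-2, the factor that acts mainly on sterol genes, read 9.39, 9.46 and 9.47 in proliferating and 9.25, 9.19 and 9.20 in senescent cells, 1.17-fold lower with a change of -0.23 ± 0.07 (adjusted p = 0.0422). Its call ended without any 1 array other than proliferating replicate 1 (changes of -0.25 to -0.22, adjusted p of 0.0851 to 0.143), and its dimmer probe set gave -0.066 (adjusted p = 0.723).

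Scap, the escort protein gene, read 10.76, 10.77 and 10.71 in proliferating and 10.68, 10.64 and 10.68 in senescent cells, a change of -0.080 with a 95% confidence interval of -0.23 to 0.067 (limma adjusted p = 0.46). Insig1, the retention protein gene that SREBPs themselves drive, read 9.58, 9.91 and 9.87 in proliferating and 9.67, 9.67 and 9.71 in senescent cells. Proliferating replicate 1 was the lowest of the 6 arrays, and the change was -0.10 (adjusted p = 0.546), or -0.21 without it (adjusted p = 0.0949). Its paralog Insig2 read 10.44, 10.51 and 10.45 in proliferating and 10.61, 10.70 and 10.37 in senescent cells, a change of 0.090 (adjusted p = 0.584) with overlapping groups.

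Stard4, a soluble carrier that moves sterol between membranes, read 9.74, 10.11 and 10.17 in proliferating and 9.54, 9.69 and 9.23 in senescent cells. It was 1.43-fold lower, with a change of -0.52 ± 0.15 (limma adjusted p = 0.0404). The groups did not overlap, and its other probe sets fell too, by 0.41 and 0.69 (adjusted p = 0.0478 and 0.00375 over all probe sets). In the brightest probe set the call ended without proliferating replicate 2 or 3 or senescent replicate 1 or 3 (-0.47, -0.44, -0.55 and -0.39, adjusted p of 0.0877 to 0.121).

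Of the 6 fatty acid enzymes 3 fell and 0 rose, with a median of -0.23. Over all genes 10.5% fell and 9.49% rose, and among genes above background 17.4% and 14.7%. The 3 that fell act at the end of the pathway, on chains already made, but whether the steps differ was not tested. Scd2, a desaturase that makes monounsaturated from saturated fatty acids, had the largest fall of the whole set. It read 13.98, 14.03 and 14.08 in proliferating and 13.24, 13.39 and 13.27 in senescent cells, 1.66-fold lower with a change of -0.73 ± 0.07 (limma adjusted p = 4.25e-04). Its dimmer probe sets gave -1.10 and -0.62 (adjusted p = 4.19e-04 and 0.0531 over all probe sets).

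Scd1, its paralog, read 11.92, 11.67 and 11.63 in proliferating and 11.30, 11.30 and 11.31 in senescent cells, 1.35-fold lower with a change of -0.43 ± 0.09 (limma adjusted p = 0.0111). Its second probe set read 8.80, 8.29 and 8.36 in proliferating and 7.42, 7.40 and 7.35 in senescent cells, a change of -1.09 ± 0.13 (adjusted p = 0.0015 over all probe sets), so the size of the fall depends on the probe set. Whether probes for Scd1 and Scd2 also bind the other paralog was not tested. Replicate 1 was the highest proliferating array in both probe sets of Scd1. Elovl6, which lengthens the products of fatty acid synthase, read 10.06, 10.34 and 10.31 in proliferating and 9.94, 9.90 and 9.80 in senescent cells, a change of -0.36 ± 0.09 (adjusted p = 0.0281). Its call ended without any 1 array other than proliferating replicate 1 (changes of -0.39 to -0.31, adjusted p of 0.0586 to 0.0977). Scd1 and Scd2 held theirs without any 1 array.

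The enzymes that make the chain did not pass. Fasn, fatty acid synthase, read 10.66, 10.76 and 10.84 in proliferating and 11.04, 10.79 and 11.05 in senescent cells, a change of 0.20 with a 95% confidence interval of -0.0084 to 0.42 (limma adjusted p = 0.175). Acly, which makes acetyl-CoA from citrate, read 11.93, 12.06 and 12.04 in proliferating and 12.12, 12.13 and 12.29 in senescent cells, and all senescent arrays were above the others, by 0.17 (adjusted p = 0.184). Its other 2 probe sets above background gave 0.17 each. Acaca, the carboxylase that commits acetyl-CoA to fatty acids, gave -0.11 (adjusted p = 0.425) with overlapping groups.

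**Figure D4:**
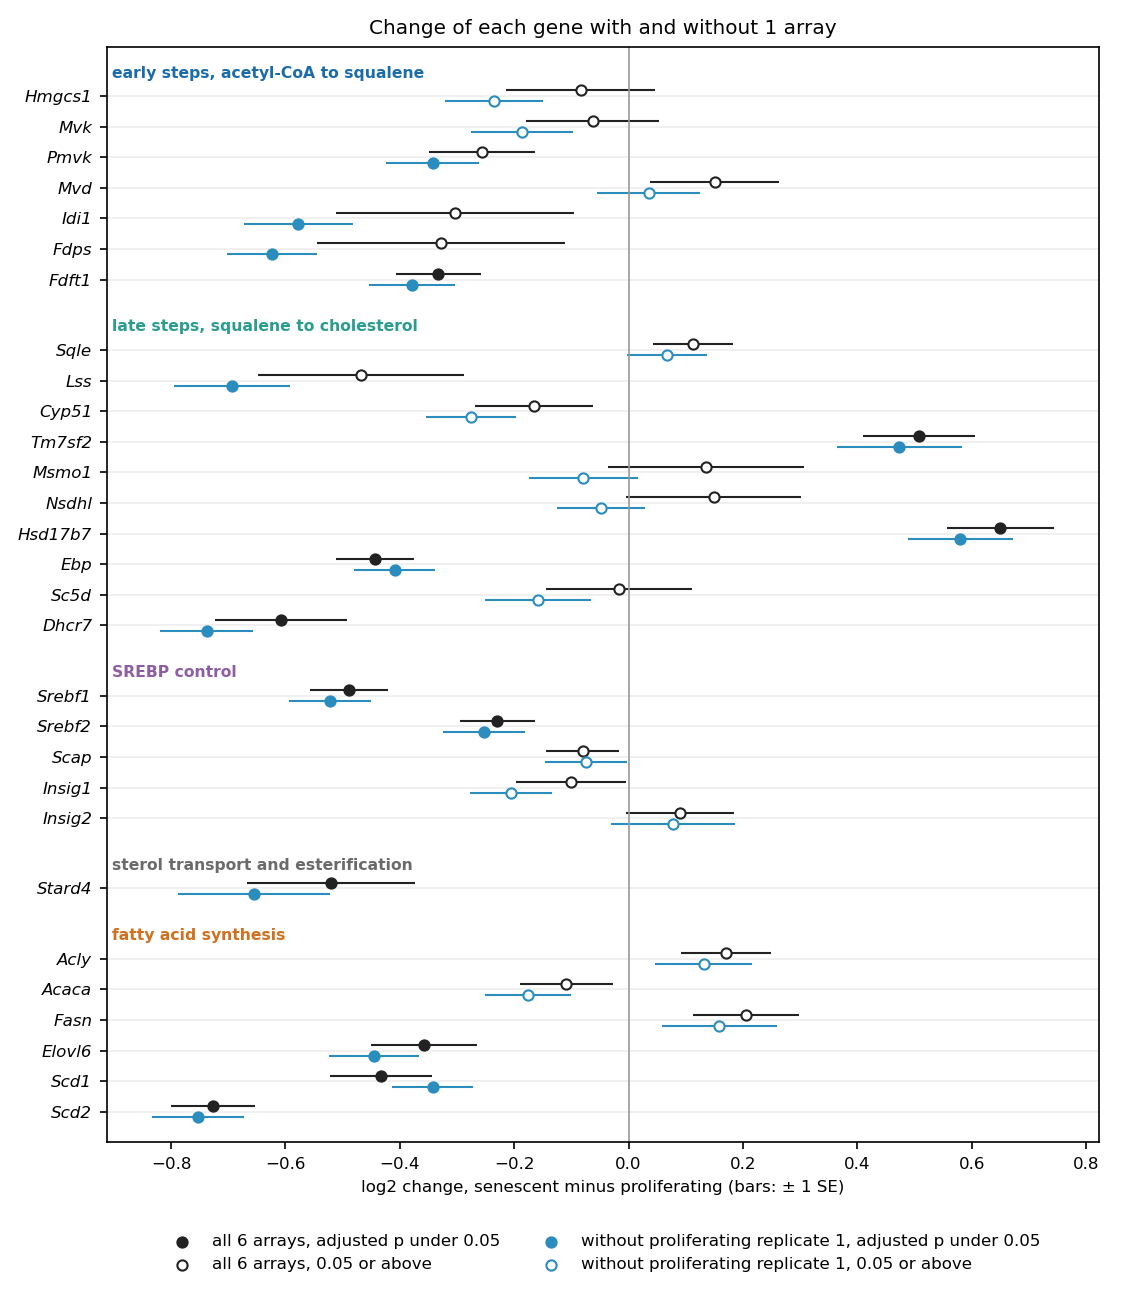
Log2 change of each gene, senescent minus proliferating, with ± 1 SE, from all 6 arrays (black) and without proliferating replicate 1 (blue), with filled points at an adjusted p under 0.05. Leaving out the array moves Idi1 from -0.30 to -0.58 and Fdps from -0.33 to -0.62, while Scd2 goes from -0.73 to -0.75. Values under poly-A scaling, where Tm7sf2 turns to -0.088, are not drawn.

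Several probe sets above background were given for 16 genes, and for 14 of them all gave a change of the same sign. The exceptions were Fdft1, where 1 dim probe set gave 0.0088, and Sc5d, where the brightest gave -0.017 and the others 0.34 and 0.24. When the mean of all probe sets was used for each gene, 6 genes fell and 2 rose, against 8.92% and 8.81% of all genes. The calls of Fdft1, Srebf2 and Elovl6 ended there (-0.22, -0.15 and -0.22, limma adjusted p = 0.13, 0.203 and 0.136).

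**Figure D5:**
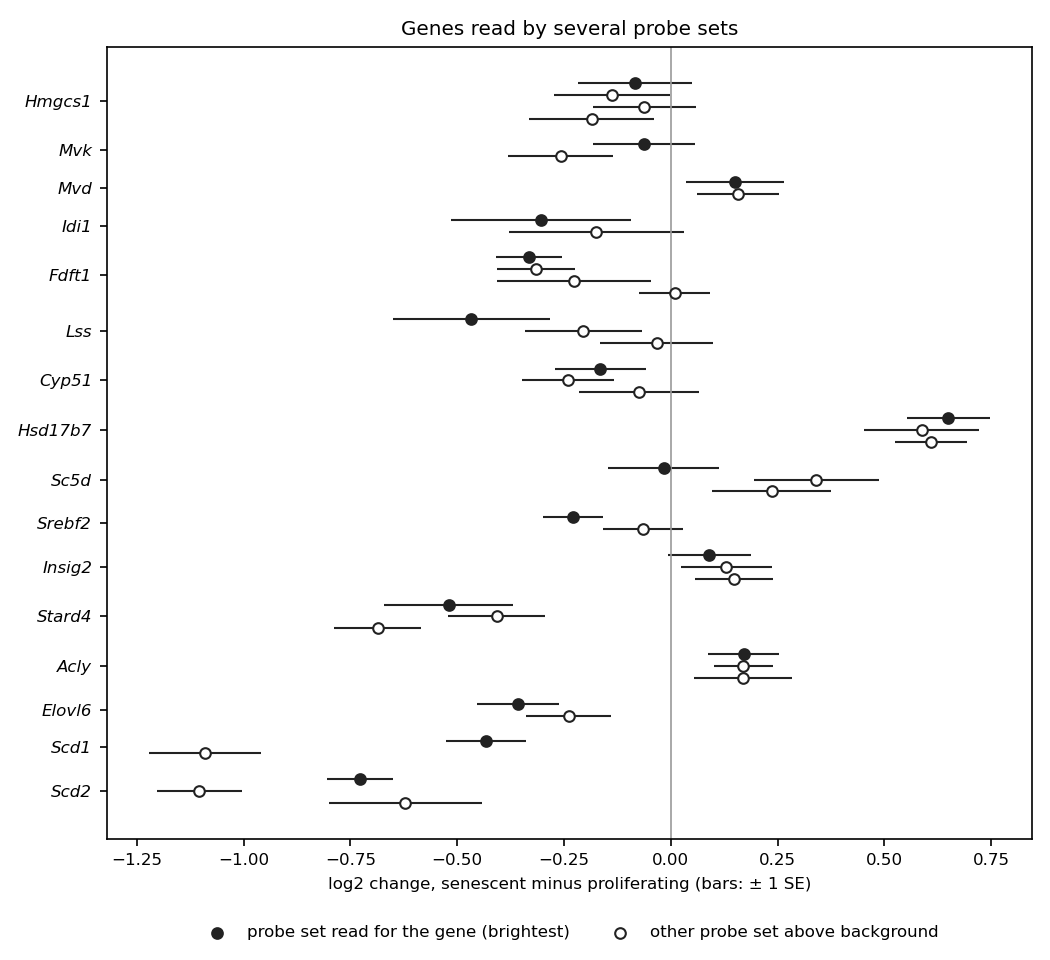
Log2 change, senescent minus proliferating, with ± 1 SE, of every probe set above background for the 16 genes with several, with the probe set read for the gene filled. The 3 probe sets of Hsd17b7 lie between 0.59 and 0.65, while those of Scd1 lie at -0.43 and -1.09.

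Other genes of the same pathways, listed by function but with earlier results of these data known, were measured for 45 of 52. Of these 14 fell and 4 rose, 31.1% and 8.89%, against 10.5% and 9.49% of all genes, with a median of -0.088. By group, 7 of 22 genes of fatty acid supply, elongation and desaturation fell and 1 rose, 3 of 8 of the sterol and isoprenoid branch fell and 1 rose, 2 of 7 of SREBP processing fell and 1 rose, and 2 of 8 of sterol uptake and traffic fell and 1 rose. The counts were 9 and 1 without senescent replicate 1 or 2 or proliferating replicate 3, against 7.17% to 8.23% and 6.2% to 7.41% of all genes. They were 9 and 2 without proliferating replicate 2, against 7.53% and 6.82%. With each array centred on genes of middle level they were 8 and 7, against 7.35% and 12.6%. Among genes above background they were 14 and 7, against 17.4% and 14.7%.

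The 4 largest falls among these genes were those of Acsl3, Mid1ip1, Gpam and Fads1. Acsl3, which activates fatty acids at lipid droplets, read 9.80, 9.96 and 9.98 in proliferating and 8.90, 9.12 and 8.62 in senescent cells, 2.05-fold lower (change of -1.04 ± 0.12, limma adjusted p = 9.45e-04). Mid1ip1, an activator of Acaca protein, read 12.19, 12.00 and 11.99, and 11.17, 11.13 and 11.03, 1.92-fold lower. Gpam, the first enzyme of triglyceride synthesis, was 1.66-fold lower and Fads1, a desaturase of polyunsaturated fatty acids, 1.52-fold lower. For all 4 genes every senescent array lay below every proliferating array, and the call held without any 1 array.

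The 4 that rose were Vldlr, a lipoprotein receptor (0.62), Elovl7, a fatty acid elongase (0.53), Pgrmc1, a membrane protein that binds P450 enzymes (0.36), and Nus1, a subunit of the enzyme that makes dolichol (0.33). Under poly-A scaling they were at 0.019, -0.070, -0.24 and -0.27. The call of each ended without at least 1 of the arrays. Vldlr lost its call without proliferating replicate 3 (0.53) or senescent replicate 2 (0.56), Elovl7 without senescent replicate 1, 2 or 3 (0.49, 0.51 and 0.58), Pgrmc1 without proliferating replicate 2 or 3 or senescent replicate 1 or 2 (0.34, 0.33, 0.34 and 0.32) and Nus1 without any array except senescent replicate 3 (0.27 to 0.35). Proliferating replicate 1 also stood apart for some of these genes, in both directions. Acss2, which makes acetyl-CoA from acetate and was singled out after its values were seen, read 6.78, 7.57 and 7.48 in proliferating and 7.30, 7.21 and 7.07 in senescent cells, while Vldlr was 0.51 higher on that array than the mean of the other proliferating arrays. Over the 45 genes the median distance of that array was -0.027, against -0.37 for the 17 sterol enzymes.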

How the data were processed

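Total RNA of 6 samples was labelled with biotin and hybridised to Affymetrix mouse arrays, 1 array per sample. The authors deposited 1 log2 value for each probe set and array, computed with RMA per the submitters' processing notes. RMA subtracts background, equalises the arrays' distributions (here to within 0.123 log2 units at each rank) and summarises probes, which removes shifts shared by most genes. No version or filter is given in the sources used here. Of 45101 probe sets, 34958 were paired with 1 gene symbol, 932 with several and 9211 with none. Symbols were updated by Entrez number through a RefSeq table of GRCm38.p6, which held 34754 of the 34958. The brightest probe set stood for each of 18194 genes.

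Groups came from the titles. The comparison used limma 3.58.1 (lmFit, then eBayes) under R 4.3.3 with no covariate. Benjamini-Hochberg adjustment ran over all 18194 genes, at 0.05. The median SE was 0.0884, with 4 residual and 4.21 prior degrees of freedom. The number of arrays limits the precision. No detection calls were used, and 44 olfactory receptor probe sets set the background. The fit was tested on simulated data. The members, lists and tests were chosen with earlier results of these data known. All members are accounted for. Array values are given for members past the threshold and for Srebf1, Srebf2, Scap, Insig1, Insig2, Fasn, Scd1, Scd2, Sqle and Hmgcs1 by rule, and for Idi1, Fdps, Pmvk, Lss and Acly, which were added after their values were seen. The other members are given by their change. Of the other pathway genes the 4 largest rises and 4 largest falls are named. Motifs were searched with Python 3.11.15 and figures drawn with matplotlib 3.10.9. Paralog proteins were not compared, as their sequences were not used here. The closing section gives the alternatives tried.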

Additional observations from a re-analysis of the deposited data

How the results depend on the processing

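Counts of called genes used limma with Benjamini-Hochberg adjustment throughout. The number of members that fell stayed within 1.5 times the main 9 under the mean of all probe sets (6), without probe sets that can bind several transcripts (9), with a robust variance trend (9), among genes above background (9) or above the median level (10), and with array weights (11). The shares of tested genes that fell were 8.92%, 10.3%, 12.5%, 17.4%, 22.8% and 12.2%, in that order. The number of members that fell was 5 with each array centred on genes of middle level, against 7.35% of all genes. Under poly-A scaling it was 26, against 83.2%. The number that rose was 2 under all of these except poly-A scaling, against 8.81% to 19% of tested genes. Under poly-A scaling it was 0, against 0.962%. Leaving out 1 array gave 5 to 13 falls and 2 rises, against 7.17% to 9.76% and 6.2% to 8.59% of all genes. The groups did not overlap for 15 to 24 members (15 with all arrays), and 2433 to 3337 genes were called in all, against 3645. The share of all genes without overlap was counted with all arrays (19.6% lower, 17.4% higher) and without proliferating replicate 1 (25.3% and 21.7%) only.

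Under poly-A scaling 15321 genes were called, 1.14% of them higher, against 47.4% of calls with all arrays as deposited and 63.2% with centring on middle genes, where the median of all genes was 0.067. Poly-A scaling gave 36 falls and 0 rises among the other pathway genes, against 83.2% and 0.962% of all genes. The medians of the members were -0.85 (early steps), -0.55 (late steps), -0.70 (SREBP control), -1.12 (Stard4) and -0.83 (fatty acid enzymes). This scaling turned the sign of Mvd (-0.45), Sqle (-0.48), Tm7sf2 (-0.088), Msmo1 (-0.46), Nsdhl (-0.45), Insig2 (-0.51), Acly (-0.43), Fasn (-0.39), Elovl7 (-0.070), Pgrmc1 (-0.24) and Nus1 (-0.27). The shift follows from the spike-ins, which read 0.60 log2 units higher on the senescent arrays.

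The other pathway genes had 8 falls and 7 rises with centring on middle genes, against 7.35% and 12.6% of all genes. They had 8 rises with a robust variance trend, against 10.8%. They had 7 above background, above the median level or with array weights, against 14.7%, 19% and 11.1% of tested genes. Leaving out 1 array gave 9 to 13 falls and 1 to 4 rises, against 7.17% to 9.76% and 6.2% to 8.59% of all genes. The SREBP control median was -0.15 with the mean of all probe sets, -0.032 with centring, -0.16 with array weights and -0.21 to -0.068 with 1 array left out. The fatty acid median was -0.13 with the mean of all probe sets and -0.16 with centring, and -0.26 to -0.19 with 1 array left out. The late-step median of 0.048 was -0.019 with the mean of all probe sets and -0.017 with array weights. Early steps gave -0.34 to -0.15, late steps -0.12 to 0.098 and Stard4 -0.65 to -0.39 with 1 array left out.

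Signs of small changes also turned for Msmo1 (-0.15) and Sc5d (0.19) with the mean of all probe sets, Mvk (0.0062) and Sc5d (0.052) with centring, Msmo1 (-0.079) and Nsdhl (-0.048) without proliferating replicate 1 (both up to 0.26 with another array left out), Hmgcs1 (0.0066) and Mvk (0.044) without proliferating replicate 3, and Sc5d without proliferating replicate 2 (0.049) or 3 (0.059) or senescent replicate 3 (0.055). Except where stated, the cause was not tested.

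Replicate numbers are shared by the groups, and whether same-numbered arrays were prepared together is not stated. Over all genes their deviations from the group means had correlations of 0.094, -0.068 and -0.15, which cannot show whether they were paired. With the replicate block 6 members fell and 2 rose, against 8.48% and 7.65% of all genes, and 2935 genes were called. The calls of Srebf2 (-0.23, limma adjusted p = 0.107), Stard4 (-0.52, adjusted p = 0.0534) and Elovl6 (-0.36, adjusted p = 0.0583) ended.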
